A study of Sus scrofa with 55 samples.

Results

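Transcripts typical of macrophages and other leukocytes were examined in libraries made from single pig oocytes. The genes are C1QA, C1QB and C1QC, which encode the chains of complement C1q, together with CD163, CD68, LYZ, AIF1, PTPRC and NKG7. They are 9 of the 25880 gene IDs in the count table, each matched by its symbol, and every one of the 9 was found once. The genes were picked after earlier readings of these libraries had shown such transcripts to vary over the follicle stages, so their levels by stage are given as a description without a test.

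The 55 libraries hold the cytoplasmic RNA of 1 oocyte each, prepared with Smart-seq2, a protocol that copies full-length mRNA from a single cell and amplified the cDNA here through 16 PCR cycles. All oocytes came from wild-type pubertal Landrace and Yorkshire gilts (young female pigs that have not farrowed) aged 208 to 210 days. Pregnant mare serum gonadotropin, a hormone that drives follicle growth, had been given to every animal (5 IU) 48 h before the ovaries were collected, so no group is without the hormone. Stages 1 to 5 have 11, 12, 11, 11 and 10 libraries, the stages being antral follicle classes whose sizes the sources do not state. Gilt 201 gave 14 oocytes, gilt 205 gave 9, gilt 801 gave 12 with none at stage 5, and gilt 803 gave 20. The sources do not state how cumulus cells were taken off the oocytes.

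C1q is the recognition unit of the classical complement pathway, built from A, B and C chains that assemble together, and tissue macrophages are a main source of it. CD163, CD68, LYZ and AIF1 are widely used macrophage and myeloid genes, PTPRC marks nearly all white blood cells, and NKG7 belongs to cytotoxic lymphocytes. Macrophages are ordinary residents of the ovarian stroma and the theca layer around antral follicles, whereas the oocyte lies inside the zona pellucida and the cumulus.

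Library totals ran from 151104 to 38282850 counts with a median of 12139540. Levels are CPM, the gene's count as a share of the library total scaled to 1000000 counts, and are not corrected for gene length, so they compare libraries and not genes. A library was said to carry a gene when it held at least 3 counts of it. A count of 0 allows up to 3 counts, which is 19.9 CPM in the shallowest library. The 3 shallowest libraries, all of gilt 803, had totals of 151104, 220085 and 343284 counts. Such limits, and the intervals on shares of counts, reflect counting error alone, since the reads carry no molecular identifiers and PCR copies of 1 molecule are counted separately.

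Stage 2 gilt 803 oocyte 3, with 1932026 counts, had the highest CPM of all 55 libraries for each of the 9 genes and is called the C1q-rich library below. Its 10 measured oocyte genes summed to 661 CPM, against a median of 14818 CPM over all libraries, and GDF9, an oocyte-secreted growth factor, stood at 6.21 CPM against a median of 832. Of 34 measured rows on a list of other macrophage and monocyte genes it carried 23, and their sum of 13020 CPM was the highest of the 55. CD74, the invariant chain of MHC class II, had 3672 CPM there, the lysosomal protein LAPTM5 had 1570, the signalling adaptors FCER1G and TYROBP had 1213 and 1060, and the myeloid transcription factor SPI1 had 1004. Of the 34 rows 8 had 0 counts in it, among them MRC1, LYVE1, FOLR2, MERTK and the monocyte gene CD14. Other genes of that list were present, such as TREM2 at 506 CPM, CX3CR1 at 231, STAB1 at 194 and VSIG4 at 106. Theca and stroma genes summed to 2.07 CPM, with 0 of 15 carried. Low oocyte gene levels were not particular to it. The oocyte genes summed to 34.8 to 619 CPM in 6 other libraries, which are stage 1 gilt 801 oocyte 3, stage 2 gilt 803 oocyte 2, stage 3 gilt 803 oocyte 2, stage 4 gilt 803 oocytes 1 and 4 and stage 5 gilt 803 oocyte 1. Granulosa and cumulus genes summed to 6184 to 28094 CPM in those 6 and to 195 CPM in the C1q-rich library. The 6 libraries carried 0 to 4 of the 9 genes. These 7 low-oocyte libraries go against the oocyte label by this list. The cut is the C1q-rich library's own sum, and other libraries lay close above it. The next sums were 734 CPM in stage 5 gilt 803 oocyte 2, 919 in stage 3 gilt 201 oocyte 4 and 993 in stage 1 gilt 803 oocyte 1. The main values by stage and by gilt are also given without the C1q-rich library, and without all 7 where that moved them.

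The 9 genes were rare across the libraries and high in a few, as the heat map of all 55 libraries shows. The median CPM was 0 for each of them. Some count of a member was present in 46 libraries, 38 carried at least 1 of the genes, and 9 had no count of any of them. The most widely carried was C1QB, in 17 libraries, and the least was LYZ, in 4. By comparison, the 6291 genes whose total counts lay within the members' range (535 to 8168) were carried in a median of 22 libraries.

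**Figure D1:**
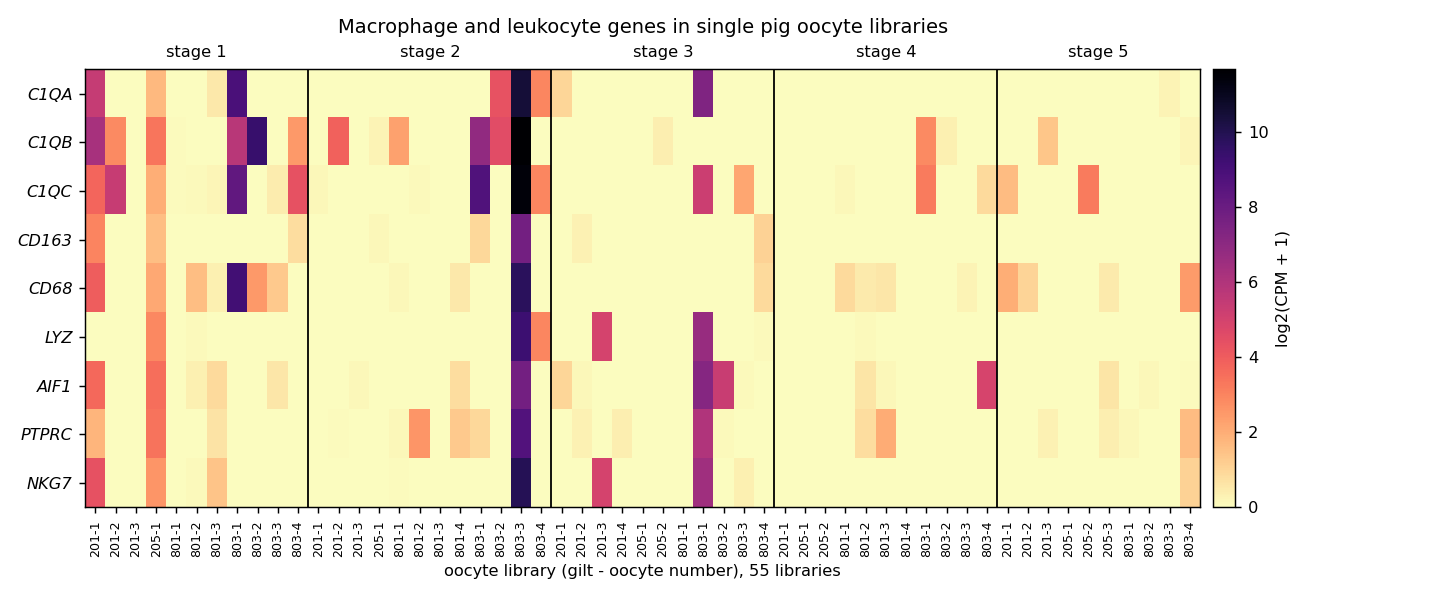
Level of each of the 9 genes (rows) in each of the 55 oocyte libraries (columns, ordered by stage, then gilt and oocyte number), as log2(CPM + 1) on the colour scale. Most cells are at 0, and the stage 2 column 803-3 is darkest in every row, up to 3237 CPM for C1QB.

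C1QA (ENSSSCG00000003524) had 4486 counts in all and was carried by 8 libraries. Its values ran from 0 to 1406 CPM, the highest in the C1q-rich library, followed by 484 CPM in stage 1 gilt 803 oocyte 1, 162 in stage 3 gilt 803 oocyte 1 and 40.6 in stage 1 gilt 201 oocyte 1. The C1q-rich library held 60.5% of its counts. No library of stage 4 or stage 5 carried it, and the only count there was 1 in stage 5 gilt 803 oocyte 3.

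C1QB (ENSSSCG00000033512) had 8168 counts, 76.6% of them in the C1q-rich library at 3237 CPM. The next values were 677 CPM in stage 1 gilt 803 oocyte 2, a library of only 220085 counts, 116 in stage 2 gilt 803 oocyte 1 and 74.6 in stage 1 gilt 201 oocyte 1. Over stages 1 to 5 its 17 carriers numbered 6, 6, 1, 2 and 2. The 13 carriers with at least 10 counts had 1.65 CPM or more.

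C1QC (ENSSSCG00000038706) had 7375 counts, 73.7% of them in the C1q-rich library at 2815 CPM. It reached 417 CPM in stage 2 gilt 803 oocyte 1, 294 in stage 1 gilt 803 oocyte 1 and 40.2 in stage 1 gilt 201 oocyte 2. It was carried by 13 libraries, and 8 more had 1 or 2 counts. At stage 5 it was the main C1q chain in stage 5 gilt 205 oocyte 2, with 141 counts and 8.32 CPM.

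The chains did not occur in a fixed ratio. A C1q chain was carried by 24 libraries, of which 14 carried 1 chain, 6 carried a pair and 4 carried all 3. In the C1q-rich library the 14408 C1q counts were 18.9% C1QA, 43.4% C1QB and 37.7% C1QC (95% Wilson intervals 18.2 to 19.5, 42.6 to 44.2 and 37.0 to 38.5). Stage 3 gilt 803 oocyte 1 held 1219 C1q counts, of which 81.6% were C1QA (79.4 to 83.7), 18.4% were C1QC (16.3 to 20.6) and none were C1QB (up to 0.314). Stage 1 gilt 201 oocyte 2 showed another pattern, with 86.7% C1QC (83.7 to 89.1), 13.3% C1QB and 0 of 607 counts from C1QA. All 226 C1q counts of stage 2 gilt 201 oocyte 2 and all 149 of stage 1 gilt 803 oocyte 2 were C1QB. The shares differed between these libraries by more than their counting intervals. The intervals treat each count as 1 molecule.

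CD163 (ENSSSCG00000033146), the scavenger receptor for haemoglobin and haptoglobin, was the scarcest member with 535 counts. It stood at 210 CPM in the C1q-rich library, which held 75.9% of its counts, and at 7.0 CPM in the next, stage 1 gilt 201 oocyte 1. Its other carriers were stage 1 gilt 205 oocyte 1 at 1.99 CPM, stage 3 gilt 803 oocyte 4 at 1.13 and stage 1 gilt 803 oocyte 4 at 0.762. No library of stage 4 or stage 5 had a count of it, and neither did any of the 12 libraries of gilt 801.

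CD68 (ENSSSCG00000017956), a lysosomal glycoprotein abundant in phagocytes, was carried by 16 libraries and had 2338 counts. Its highest values were 873 CPM in the C1q-rich library and 556 CPM in stage 1 gilt 803 oocyte 1, and the third, 14.9 CPM in stage 1 gilt 201 oocyte 1, was far lower. Unlike CD163 it was carried late in the series, in 4 libraries of stage 4 and 4 of stage 5. These late values were low, the highest being 4.33 CPM in stage 5 gilt 803 oocyte 4 and 2.97 in stage 5 gilt 201 oocyte 1. The gene sits between EIF4A1 and MPDU1 in the RefSeq table.

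LYZ (ENSSSCG00000000492), the bacterial cell-wall enzyme lysozyme, was carried by 4 libraries. The values were 625 CPM in the C1q-rich library, 101 in stage 3 gilt 803 oocyte 1, 30.2 in stage 3 gilt 201 oocyte 3 and 6.52 in stage 1 gilt 205 oocyte 1. Those 4 libraries come from 3 of the 4 gilts and from stages 1 to 3. Among them only stage 3 gilt 201 oocyte 3 carried no C1q chain and none of CD163, CD68, AIF1 or PTPRC.

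AIF1 (ENSSSCG00000032341), the calcium-binding actin-bundling protein also known as IBA1, was the least concentrated of the 9. It had 3187 counts over 14 carriers, and its largest count, 1005 (31.5%), lay in stage 3 gilt 803 oocyte 2, where it was the only member carried and the oocyte genes summed to 247 CPM. By CPM the C1q-rich library led with 212, followed by 144 in stage 3 gilt 803 oocyte 1, 38.4 in stage 3 gilt 803 oocyte 2 and 29.1 in stage 4 gilt 803 oocyte 4, another of the low-oocyte libraries. In the RefSeq gene table AIF1 overlaps LST1 and NCR3, and the sources do not state whether the counting used strand, so reads of the overlap cannot be told apart.

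PTPRC (ENSSSCG00000010908), the CD45 phosphatase of blood cells, was carried by 13 libraries and had 1675 counts. It stood at 409 CPM in the C1q-rich library, at 62.8 in stage 3 gilt 803 oocyte 1 and at 9.40 in stage 1 gilt 205 oocyte 1. Gilt 801 gave 5 of its carriers, none of which carried C1QB or C1QC, with 4.87 CPM in stage 2 gilt 801 oocyte 2 as the highest. Of them, stage 2 gilt 801 oocyte 4 and stage 4 gilt 801 oocytes 2 and 3 also carried CD68 and AIF1 and had 0 counts of every C1q chain. Those 3 libraries resembled each other over all genes, with Pearson r of 0.986 to 0.991 on log2(CPM + 1), although their counts differed by more than sampling noise (chi-square per degree of freedom of 67.1 to 105). They count here as 3 oocytes because the labels give them so.

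NKG7 (ENSSSCG00000003231), a granule protein of natural killer and cytotoxic T cells, had 2998 counts and 8 carriers. Its highest values were 949 CPM in the C1q-rich library, 85.9 in stage 3 gilt 803 oocyte 1, 29.3 in stage 3 gilt 201 oocyte 3 and 19.5 in stage 1 gilt 201 oocyte 1. Of 26 rows for T and NK cell genes the C1q-rich library carried 1, a GZMA row with 249 counts, while CD3D, CD3E and PRF1 were at 0. Stage 3 gilt 803 oocyte 1 carried 11 of those 26 rows, with 6 counts of CD3D, 5 of CD3E and 16 of PRF1 beside 528 of NKG7. Stage 3 gilt 201 oocyte 3 had 307 counts of NKG7.

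Whether the genes occurred together differed from pair to pair, and the matrix of shared carriers gives every pair. All 4 carriers of LYZ carried NKG7, which is 50% of the 8 carriers of NKG7. AIF1 and PTPRC shared 9 libraries, 64.3% of AIF1's carriers and 69.2% of PTPRC's, and AIF1 and CD68 also shared 9. C1QB and AIF1 shared only 3, 17.6% of C1QB's carriers and 21.4% of AIF1's. Of the 24 libraries that carried CD68, AIF1 or PTPRC, 9 had no count of any C1q chain. PTPRC was carried by 7 of the 24 carriers of a C1q chain.

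**Figure D2:**
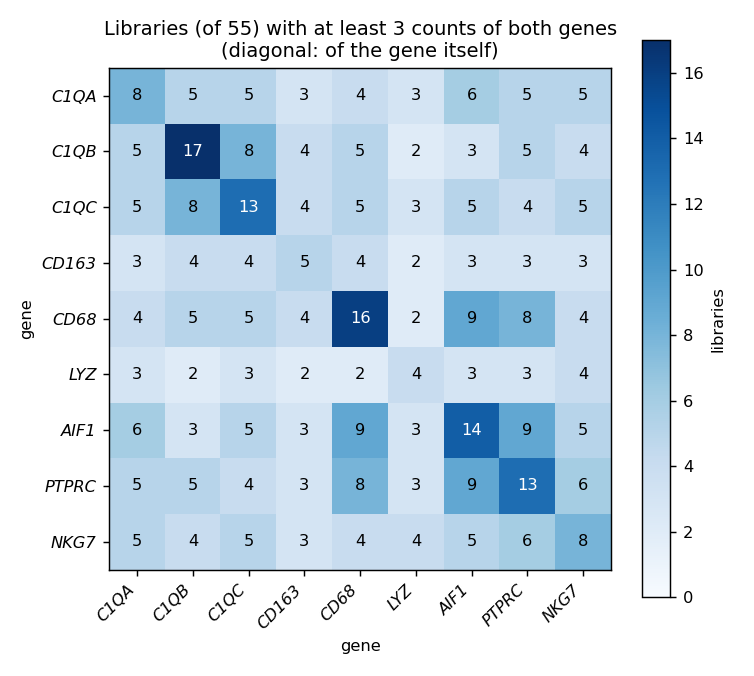
Number of the 55 libraries that held at least 3 counts of both genes named on the axes, with each gene's own number of carriers on the diagonal. C1QB has the largest diagonal value, 17, while LYZ with 4 shares all of its carriers with NKG7.

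The correlations between members over the 55 libraries, on log2(CPM + 1), leaned on the C1q-rich library to different extents. They are descriptions over libraries that share animals and differ in depth. LYZ and NKG7 had a Pearson r of 0.91 with that library and 0.81 without it, and AIF1 and PTPRC had 0.76 and 0.63. For CD68 and NKG7 the r went from 0.54 to 0.14, for C1QB and PTPRC from 0.45 to 0.07 and for C1QB and LYZ from 0.37 to -0.06. Within C1q, the r was 0.72 for C1QA with C1QC and 0.57 without the C1q-rich library, 0.68 and 0.53 for C1QB with C1QC, and 0.60 and 0.39 for C1QA with C1QB.

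Counting genes per library, 17 libraries carried none of the 9, 13 carried 1, 13 carried 2, 5 carried 3 and 7 carried 4 or more. Besides the C1q-rich library, only stage 1 gilt 205 oocyte 1 carried all 9. Its levels were low and even, from 1.99 CPM for CD163 to 10.4 for AIF1, with a sum of 50.8 CPM. It kept a strong oocyte signature of 33571 CPM and at the same time carried all 15 theca and stroma rows (2587 CPM), 32 of 34 other macrophage rows (676 CPM) and 16 of 26 T and NK cell rows. Stage 1 gilt 201 oocyte 1 carried 8 members, all but LYZ, with a sum of 183 CPM, and had the highest theca and stroma sum of the 55 libraries, 6176 CPM, with all 15 rows carried. Their part in the member levels was not tested.

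Stage 3 gilt 803 oocyte 1 carried 6 members with a sum of 592 CPM, and C1QB, CD163 and CD68 were at 0 in its 6144008 counts. It carried 23 of 34 other macrophage rows (1865 CPM), among them TYROBP with 899 counts and MSR1, a scavenger receptor, with 1461, and 9 of 15 theca rows (1462 CPM). In stage 1 gilt 803 oocyte 1, C1QA, C1QB, C1QC and CD68 were carried and the other members had 0 counts, but at its total of 343284 counts a 0 allows up to 8.74 CPM. Only 6 of its 34 other macrophage rows were carried, and CD74 with 808 counts, IRF8 with 437 and CTSS with 293 made up most of their sum of 4847 CPM. The remaining carriers of 4 members, stage 1 gilt 801 oocyte 3 and stage 5 gilt 803 oocyte 4, had sums of only 3.92 and 7.69 CPM. The former is 1 of the low-oocyte libraries, with 152 CPM of oocyte genes and 10803 CPM of granulosa and cumulus genes.

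Some libraries with a high value of a member carried only 2 of the 9 genes. Stage 3 gilt 201 oocyte 3 had 316 counts of LYZ and 307 of NKG7 and not 1 count of the other members. Stage 4 gilt 803 oocyte 4 had 503 counts of AIF1, 15 of C1QC and none of the rest, and stage 2 gilt 803 oocyte 2 had 132 of C1QA and 152 of C1QB with 0 of C1QC. In 13.4% of the 6291 genes of like total counts 1 library held 50% or more of the counts, as did 7 of the 9 members, AIF1 at 31.5% and PTPRC at 47.2% being the exceptions.

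The summed C1q level was next set against cell type lists over the 55 libraries, again as a description. Pearson r on log2(CPM + 1) was 0.55 with the other macrophage genes, 0.29 with theca and stroma, 0.29 with granulosa and cumulus, 0.31 with T and NK cell genes and -0.22 with oocyte genes. Without the C1q-rich library the values were 0.43, 0.47, 0.36, 0.28 and -0.16. Some listed genes were widespread and did not track the members: ITGAM, an integrin chain, was carried by 50 libraries with a median of 16.0 CPM and stood at 15 counts in the C1q-rich library. Such genes enter the summed level of the macrophage list in every library.

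**Figure D3:**
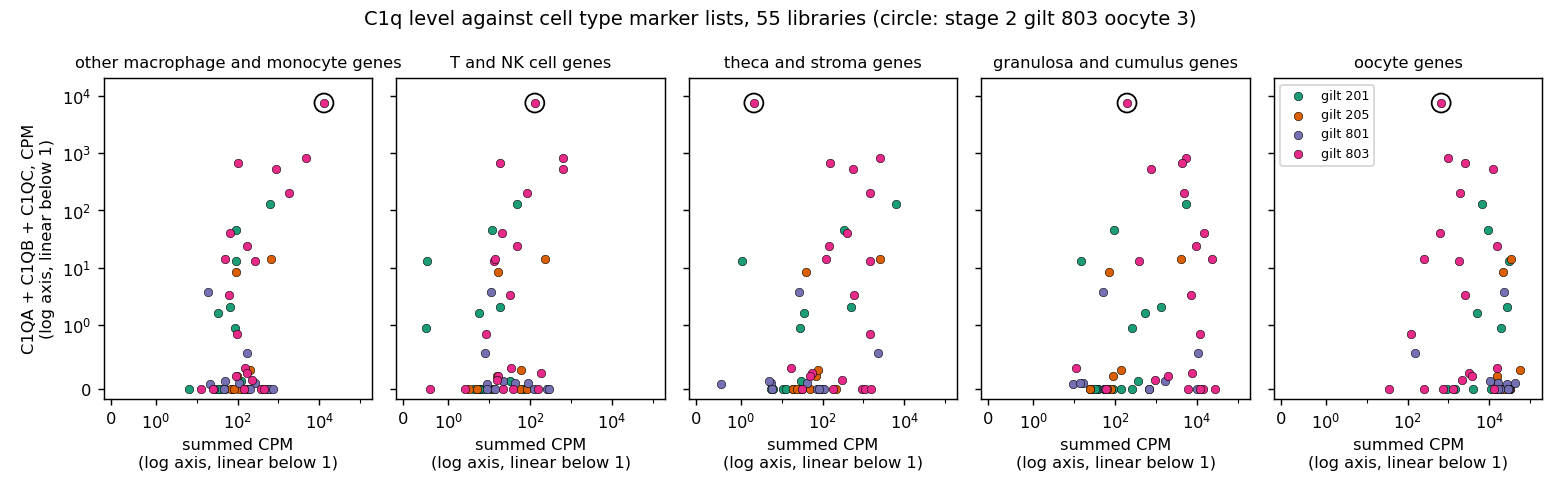
Summed CPM of C1QA, C1QB and C1QC (y axis) against the summed CPM of 5 marker lists (x axes) in the 55 libraries, coloured by gilt, on log axes that are linear below 1. The circled C1q-rich library is at 7457 CPM of C1q, 13020 CPM of other macrophage genes and 2.07 CPM of theca and stroma genes.

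By stage, the summed C1q level was highest at the early stages and overlapped between all stages, as the plot by stage shows. In single libraries of stage 1 it ran from 0 to 830 CPM with a median of 14.3, and in those of stage 2 from 0 to 7457 with a median of 2.03. The median was 0 in stage 3, with a highest value of 198 CPM, and again 0 in stage 4, with a highest value of 14.5. Stage 5 ran from 0 to 8.32 CPM with a median of 0.0691. Libraries without any C1q count numbered 1 of 11, 3 of 12, 7 of 11, 7 of 11 and 5 of 10 from the first stage to the fifth. Some library of every stage was at 0, so the ranges overlapped.

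**Figure D4:**
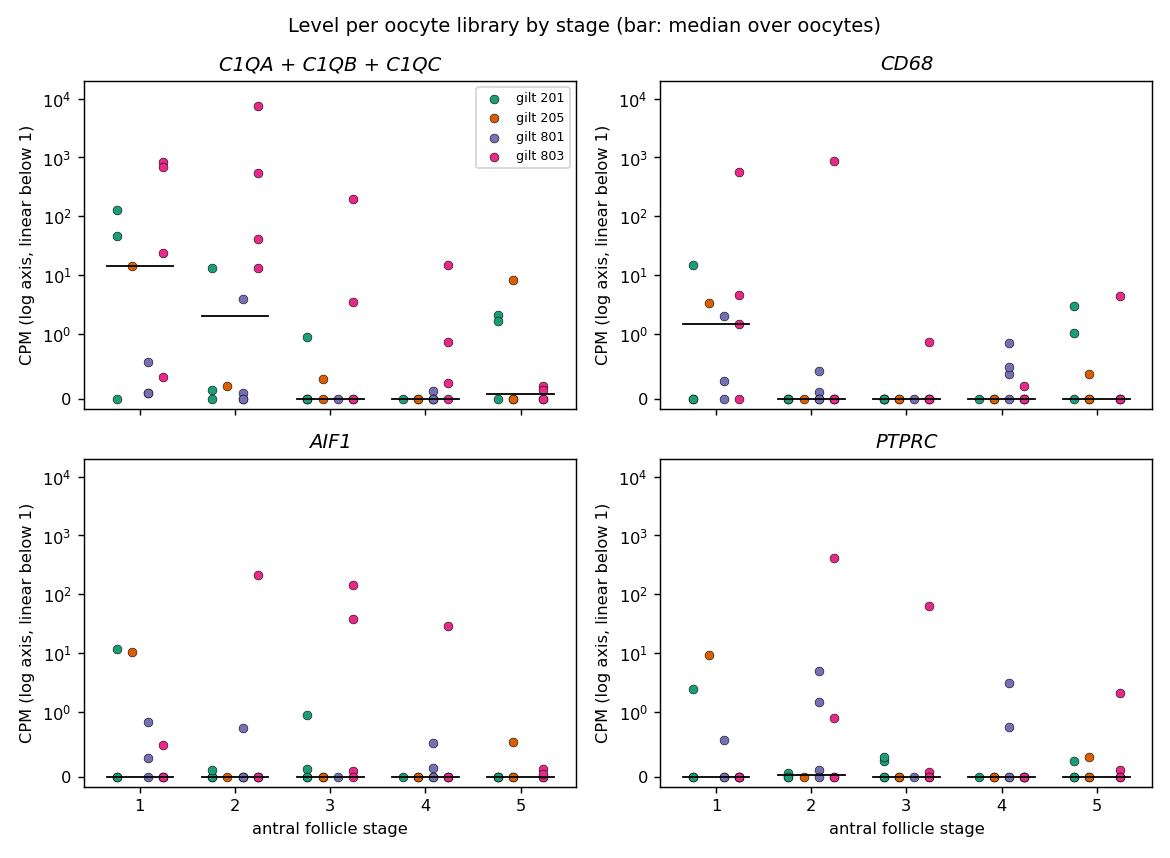
CPM in each of the 55 libraries by antral follicle stage for the summed C1q chains, CD68, AIF1 and PTPRC, on a log axis that is linear below 1, coloured by gilt, with a bar at the median over oocytes. The C1q medians are 14.3 CPM at stage 1 and 2.03 at stage 2, whereas the AIF1 bar lies at 0 in each stage.

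With counts summed per gilt and stage, the C1q level at stage 1 was 62.6 CPM in gilt 201, 14.3 in gilt 205, 0.170 in gilt 801 and 50.2 in gilt 803. The stage 2 values were 5.31, 0.206, 1.04 and 1511 CPM in the same order. Stage 3 gave 0.270, 0.166, 0 and 22.8, stage 4 gave 0, 0, 0.0124 and 4.13, and stage 5 gave 1.17 in gilt 201, 2.84 in gilt 205 and 0.0891 in gilt 803. Gilt 801 was the lowest at stages 1 and 3, and gilt 803 the highest at stages 2, 3 and 4. As mean ± SD over gilts, C1q was 31.8 ± 29.4 CPM in stage 1, 379 ± 754 in stage 2, 5.8 ± 11.3 in stage 3 and 1.04 ± 2.06 in stage 4 (n = 4 each), and 1.37 ± 1.39 in stage 5 (n = 3). Without the C1q-rich library the stage 2 mean was 28.4 ± 52.6 CPM. Without all 7 low-oocyte libraries the means were 119 ± 234 CPM in stage 2, 10.9 ± 21.6 in stage 3 and 0.0308 ± 0.0536 in stage 4, so nearly all C1q of stage 4 lay in such libraries. The stage 2 mean then rested on stage 2 gilt 803 oocyte 1, with 592 C1q counts in a library of only 1109755.

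The other members also had their highest mean at stage 2 when all libraries were included, and differed from each other at the remaining stages. CD163 averaged 1.15 ± 1.18 CPM at stage 1 (n = 4) and 10.1 ± 20.1 at stage 2, or 0.0563 ± 0.0655 without the C1q-rich library, and was at 0 in every gilt at stages 4 and 5. CD68 averaged 6.97 ± 8.25 CPM at stage 1, 0.0452 ± 0.0905 at stage 3 and 1.18 ± 1.01 at stage 5 (n = 3), and all 3 gilts of stage 5 were above 0. AIF1 averaged 3.71 ± 4.78 CPM at stage 1, 8.62 ± 17.0 in stage 3 and 2.13 ± 4.14 in stage 4. In stages 3 and 4 gilt 803 alone, at 34.2 and 8.34 CPM, was above 1 CPM. Without the 7 low-oocyte libraries the AIF1 mean of stage 4 was 0.0498 ± 0.0996 CPM and that of stage 3 was 7.68 ± 15.2. LYZ averaged 1.64 ± 3.26 CPM at stage 1 and 4.44 ± 5.47 at stage 3, where gilt 201 had 6.55, gilt 803 had 11.2 and both other gilts had 0. At stage 2 the means of PTPRC and NKG7 went from 19.9 ± 38.9 and 45.3 ± 90.6 CPM to 0.386 ± 0.677 and 0.00343 ± 0.00685 when the C1q-rich library was left out. Those of CD68, AIF1 and LYZ at stage 2 were 41.7 ± 83.3, 10.2 ± 20.2 and 29.8 ± 59.7 CPM. Without that library they were 0.0514 ± 0.103, 0.0905 ± 0.151 and 0.0305 ± 0.0611 CPM. In most of these groups the SD was as large as the mean or larger. Fewer cells of a type and less RNA per cell cannot be told apart in such sums.

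In the edgeR model of stage (1 to 5) and gilt on the 19 gilt-by-stage sums, the fitted slopes of the members ran from -2.90 ± 0.504 (SE) log2 units per stage for C1QA to -0.70 ± 0.406 for CD68. Those of C1QB, C1QC and CD163 were -2.01 ± 0.512, -0.79 ± 0.556 and -2.53 ± 0.605, and those of LYZ, AIF1, PTPRC and NKG7 were -2.18 ± 0.929, -1.21 ± 0.465, -0.94 ± 0.510 and -2.39 ± 0.647. Without the C1q-rich library the slopes were -2.48 for C1QA, -1.81 for C1QB, -0.78 for C1QC, -1.88 for CD163, -0.65 for CD68, -1.69 for LYZ, -1.16 for AIF1, -0.69 for PTPRC and -1.91 for NKG7. Without all 7 low-oocyte libraries they ran from -2.22 for C1QA to -0.66 for CD68. The median over all 15637 genes tested was -0.06, with 8993 of them below 0. Of those genes, 0.0128% (2) were called by the trend and 0% (0) by stage 5 against stage 1 at an adjusted p under 0.05 (edgeR quasi-likelihood test, Benjamini-Hochberg), and 900 and 840 had an unadjusted p under 0.05. DESeq2 called 161 and 368. The members were chosen on these differences between stages, so nothing is read from the number of slopes below 0. Each SE was the absolute slope divided by the square root of its edgeR F statistic. A slope set against its SE therefore repeats the stage test and is not read either.

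Genes of the same cell types that are not among the 9 gave a test of stage. Of 91 further leukocyte genes listed (macrophage and monocyte, T and NK cell, B and plasma cell, granulocyte and mast cell), 77 rows were measured and 55 passed the filter on low counts. Of the 55, 46 had a slope below 0 and 9 above, with a median of -0.56 log2 units per stage, and edgeR called none of them, while 12 had an unadjusted p under 0.05 and DESeq2 called 3. For stage 5 against stage 1, 44 of the 55 had a fitted change below 0 with a median of -2.96 log2 units, while over all 15637 genes tested 8954 were below 0 with a median of -0.27; edgeR called none, 13 had an unadjusted p under 0.05 and DESeq2 called 6. The macrophage and monocyte list alone had 31 tested genes, 26 below 0, a median of -0.60 and none called. CD74 had the slope -1.32 ± 0.333 (adjusted p = 0.218, edgeR quasi-likelihood test), the protease CTSS -0.60 ± 0.468 (adjusted p = 1.00) and ITGAM 0.15 ± 0.189 (adjusted p = 1.00). Of 14 T and NK cell genes tested, 12 had slopes below 0 with a median of -0.37, CD2 at -0.16 ± 0.286 and CD247, a T cell receptor chain, at -0.02 ± 0.212 being among the most abundant. The 6 B and plasma cell genes had a median of -0.23 and the 4 granulocyte and mast cell genes a median of -0.90, and edgeR called none in any of these lists. These lists were also set up with earlier results of these data known.

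Complement genes that act with C1q were counted in the same way. Of 24 listed partners, complement components and receptors, 16 were measured and 14 tested. The listed C1R and C1S had no row under those symbols, so the counts do not cover them. Of the 14 tested, 9 had a slope below 0 and 5 above, and the median was -0.22. None was called, with 2 at an unadjusted p under 0.05 (edgeR quasi-likelihood test). C4A, the component cleaved downstream of C1q, had a slope of 0.04 ± 0.342, the inhibitor CLU -0.06 ± 0.344, C1QBP 0.04 ± 0.263 and the chaperone CALR -0.04 ± 0.156. CALR was carried by 54 libraries at a median of 143 CPM, and C1QBP, a mitochondrial protein that binds C1q, by 38. C3 was highest in the C1q-rich library at 1002 CPM. Among lists for other cells, theca and stroma genes had 13 of 14 slopes below 0 with a median of -0.69, granulosa and cumulus genes 8 of 10 with a median of -0.26 and oocyte genes 8 of 10 with a median of -0.30. Endothelial genes had 6 of 8 below 0 and a median of -0.43, and red cell and platelet genes 3 of 5 and a median of -0.81. None of these genes was called by the trend, and their part in the member levels was not tested.

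The members were also compared between animals. They were chosen with levels in these same libraries known, so the test is not independent of that choice. Carriers of some member were common in every animal, with 16 of 20 libraries in gilt 803, 9 of 14 in gilt 201, 5 of 9 in gilt 205 and 8 of 12 in gilt 801. Gilt 803 gave 17327 of the 20029 C1q counts (86.5%), against 2208 from gilt 201, 410 from gilt 205 and 84 from gilt 801. Without the C1q-rich library gilt 803 gave 2919 of 5621 C1q counts (51.9%) and gilt 201 gave 39.3%. An F test among the 4 gilts in the model with stage called 2.17% of all genes (339 of 15637; 1976 at an unadjusted p under 0.05) and 2 of the 9 members. C1QA differed among gilts (adjusted p = 0.00902, edgeR quasi-likelihood test) and so did C1QC (adjusted p = 0.0346). The others did not pass, with adjusted p of 0.0932 for C1QB, 0.169 for NKG7, 0.319 for AIF1, 0.358 for CD68, 0.378 for CD163, 0.794 for PTPRC and 0.835 for LYZ by the same test. The stages of one animal serve as its replicates in this test, so it describes these 4 gilts.

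C1QA stood at 63.1 ± 122 CPM in gilt 803 (SD over 5 stages), or 10.0 ± 9.16 without the C1q-rich library, at 2.78 ± 6.06 in gilt 201, at 0.453 ± 1.01 in gilt 205 and at 0.0182 ± 0.0365 in gilt 801 (4 stages). Gilt 803 was the highest for C1QA at 4 of the 5 stages, and all gilts were at 0 at stage 4. Its stage 5 value was 1 count, fewer than the 3 needed to carry a gene. At stage 1 it had 15.7 CPM against 13.6 in gilt 201. C1QC stood at 122 ± 258 CPM in gilt 803, 16.2 ± 23.6 without the C1q-rich library, and at 4.41 ± 9.47, 1.17 ± 1.60 and 0.0248 ± 0.0327 in gilts 201, 205 and 801. Without that library the adjusted p was 0.0380 for C1QA and 0.0839 for C1QC (edgeR quasi-likelihood test). Neither gene passed without gilt 205 (0.0694 and 0.102), gilt 801 (0.0832 and 0.270) or gilt 803 (0.626 and 0.885), and both passed without gilt 201 (adjusted p = 0.00215 and 0.0137, same test). Without the 7 low-oocyte libraries, 6 of them from gilt 803, neither passed (0.146 and 0.395), and the test called 39 of all genes.

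Of the 55 other leukocyte genes tested, 3 were called in the same F test. CD74 (adjusted p = 0.00290, edgeR quasi-likelihood test) stood at 187 ± 289 CPM in gilt 803, or 47.1 ± 42.7 without the C1q-rich library, and at 0.0921 ± 0.150 in gilt 801, and its adjusted p was 0.0457 without that library, 0.0434 without gilt 803 and 0.107 without the 7 low-oocyte libraries (same test). FCER1G and the complement receptor VSIG4 (adjusted p = 0.0105 for each) did not pass without the C1q-rich library, at 0.155 and 0.0709, or without the 7 low-oocyte libraries, at 0.648 and 0.0717. With 1 gilt left out, edgeR did not call FCER1G without gilt 205 (adjusted p = 0.0506), gilt 801 (0.0607) or gilt 803 (0.956), nor VSIG4 without gilt 205 (0.0655). Called genes on the lists for other cells were CYP17A1 of the theca list, GJA1, SERPINE2 and CYP11A1 of the granulosa list, and ZP3, ZP4 and GDF9 of the oocyte list, while none of the 14 complement genes was called. Gilt 803 also differed in its oocyte genes: their sum had a median of 1829 CPM there, with a range of 34.8 to 15679, against medians of 12984, 21845 and 25093 CPM in gilts 201, 205 and 801. The granulosa and cumulus sum had a median of 5818 CPM in gilt 803, against 119, 78.3 and 57.0. Mitochondrially encoded transcripts made up a median of 11.5% of counts in gilt 803 and 83.9%, 85.3% and 67.6% in the others. These quantities differed between the same animals as C1q, and their part in that difference was not tested.

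The genes whose pattern over the 55 libraries was most like the summed C1q level were sought among 9732 genes with at least 10 CPM in at least 3 libraries. The 12 nearest, by Pearson r on log2(CPM + 1), were C7, a component of the membrane attack complex, at 0.73, the TNF receptor TNFRSF1B at 0.67, the central complement component C3 at 0.64, MGP at 0.64, PEA15 at 0.64, the complement inhibitor C4BPA at 0.64, CD74 at 0.64, NUPR1 at 0.63, the Toll-like receptor adaptor TIRAP at 0.63, NOTCH1 at 0.62, SH3TC1 at 0.61 and the lipid carrier FABP4 at 0.61. The C1q-rich library was the highest of the 55 for 8 of the 12. Without it C7 stood at 0.66, PEA15 at 0.61, NUPR1 at 0.65 and C3 at 0.48, and only 5 of the 12 remained among the nearest 12.

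The nearest genes of the remaining members were partly shared. TYROBP, which couples myeloid and NK receptors to signalling, was nearest to NKG7 (r of 0.91, and 0.85 without the C1q-rich library) and to LYZ (0.85 and 0.73). The MHC class II chaperone SLA-DMB was nearest to PTPRC (0.91 and 0.82), RNF125 to AIF1 (0.85 and 0.77), SLC16A7 to CD68 (0.86 and 0.78) and C3 to CD163 (0.82 and 0.56). ARRB1 was among the 5 nearest of LYZ, AIF1, PTPRC and NKG7. LAPTM5 was among the 5 nearest of LYZ, AIF1 and NKG7.

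The genes C1QA, C1QC and C1QB lie next to each other in that order in the RefSeq gene table for the assembly Sscrofa11.1. The build behind the deposited counts is not named in the sources, so no coordinates are stated. A further deposited table with length-scaled values holds 6 of the 9 genes. Its values were above 0 in the same number of libraries as the counts for C1QB (18), C1QC (21), CD163 (8) and AIF1 (19). For CD68 it was above 0 in 45 libraries against 19 with a count, and for PTPRC in 30 against 19, so the deposited tables differ on which libraries hold these transcripts.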

How the data were processed

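RNA of 55 single oocytes was counted per Ensembl gene ID. The deposited table holds raw counts, whole numbers with no normalization by the authors, and 0 of its rows name no gene. The submitters' processing notes name HISAT2 2.1.0, Trim Galore 0.4.3, StringTie 1.2.2 and featureCounts and assign no role to them. Build, annotation release and strandedness of the counting: not given in the sources used here. The other deposited table, named for TPM, has column sums from 40074 to 2990160, so its unit was treated as other, a length-scaled value of unstated scale, used as an alternative for 23498 genes.

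CPM is the count over the library total. The oocytes of a gilt within a stage were added up (19 sums) and fitted with edgeR 4.0.16 in R 4.3.3 (TMM, filterByExpr by stage, glmQLFit and glmQLFTest, 15637 genes tested), with stage as a number or a factor and gilt as a block, two-sided, Benjamini-Hochberg adjusted over all genes tested. Pairing comes from the labels, which name the animal of each oocyte. DESeq2 1.42.0 was an alternative. The fit was tested on simulated counts of stage 5 against stage 1, where it made no false call and missed nearly all of the smaller and part of the larger changes, so a gene that was not called may still differ. Shares of counts in 1 library have 95% Wilson intervals. Depth and precision are given with the results.

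The 9 genes, the marker lists (C1q partners, macrophage, T and NK, B and plasma, granulocyte and mast, red cell and platelet, endothelial, theca, granulosa and oocyte genes), the tests and the naming rule were chosen with earlier results of these data known. The naming rule took the 9 genes, the 12 genes most like the C1q sum, the 5 most like each other member, up to 4 genes per list with the highest mean CPM, and every list gene called. Other genes named (among them GDF9, LAPTM5, MSR1 and the lymphocyte genes) were picked with their values known. The alternatives without the C1q-rich library, without libraries under 1000000 counts and without the 7 libraries whose oocyte gene sum was that of the C1q-rich library or lower were chosen after seeing the data. DNA methylation, somatic cells and cultures were not analysed here.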

Additional observations from a re-analysis of the deposited data

Results flagged for a closer look

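Within each stage with 4 gilts, the 4 gilt levels of a member (CPM of summed counts) were searched for 1 value whose gap to the nearest other exceeded Dixon's critical share of the range. Of 33 such groups with a value above 0, 23 had one, where chance gives about 1 in 20 groups of evenly spread values. Wherever 3 gilts are at 0 and the fourth is not, as in 8 of the 23, this measure always marks the fourth, so that rate is no guide to these sparse counts. The genes were also chosen with their levels by stage known, so the search is a description. No share over all genes is given for this search, so its counts are not read as particular to the members. In 17 of the 23 groups the outlying value was the highest and belonged to gilt 803. At stage 2 gilt 803 stood apart for all 9 genes, at 282 CPM for C1QA, 646 for C1QB, 583 for C1QC, 40.2 for CD163, 167 for CD68, 119 for LYZ, 40.5 for AIF1, 78.3 for PTPRC and 181 for NKG7. The C1q-rich library is 1 of its oocytes there. Without that library gilt 803 still stood apart at stage 2 for C1QA at 16.2 CPM, C1QB at 34.3, C1QC at 56.7 and LYZ at 0.122, but not for the other 5. That LYZ value is 1 count, fewer than the 3 needed to carry a gene. The other gilts had 0 of LYZ and of C1QA at stage 2. In gilt 803 at stage 2 the remaining genes were low without the C1q-rich library. CD163 and PTPRC were at 0.122 CPM in it, and CD68, AIF1 and NKG7 were at 0. At stage 3 gilt 803 stood apart for C1QA at 18.0 CPM, C1QC at 4.76, CD68 at 0.181, AIF1 at 34.2 and PTPRC at 7.02. At stage 4 it did so for C1QB at 1.69 CPM, C1QC at 2.44 and AIF1 at 8.34.

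In the other 6 groups another animal was the outlier. Gilt 205 stood apart at stage 1 for LYZ at 6.52 CPM and PTPRC at 9.40, both from its only stage 1 oocyte, and at stage 3 for C1QB at 0.166. Gilt 801 stood apart at stage 4 for CD68 at 0.423 CPM, LYZ at 0.0249 and PTPRC at 1.66. That LYZ value is 2 counts in stage 4 gilt 801 oocyte 2.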

How the results depend on the processing

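The number of genes called by the stage trend was 2 with gilt as a block. With no replicate block it was 0, and it was also 0 with each oocyte as a library, without the C1q-rich library, without libraries under 1000000 counts and without the 7 low-oocyte libraries, while DESeq2 called 161. Leaving out 1 gilt at a time gave 0 to 2. For stage 5 against stage 1, with 0 calls, the count was 23 with no filter on low counts, 368 with DESeq2 and 0 to 1 with 1 gilt left out, and 0 with no replicate block. The F test among gilts, with 339 calls, gave 1327 with library totals in place of TMM, 935 with no filter, 1006 with DESeq2, 873 with each oocyte as a library, 39 without the 7 low-oocyte libraries and 27 to 549 with 1 gilt left out. That F test has no form without the block. The cause of these shifts was not tested, beyond fewer samples where a gilt or libraries are left out. Libraries carrying a member numbered 38, and 22 to 33 with 1 gilt left out, and those carrying all 3 C1q chains 4, and 2 to 4. Without the 7 low-oocyte libraries these were 32 and 3. By the other rules tried (at least 1 count, at least 10 counts, at least 1 CPM) the former were 46, 30 and 30, and the latter stayed 4. The fitted slope of each member stayed below 0 in every alternative run that tested it. With each oocyte as a library only C1QB, C1QC and CD68 among the members were tested. Some correlations between members changed sign without the C1q-rich library, as that of C1QB with LYZ did. C1QC did not pass in the F test among gilts with DESeq2 (adjusted p = 0.125), and C1QB passed with library totals (0.0375 by edgeR), with no filter (5.98e-05), with each oocyte as a library (0.0295) and without gilt 201 (0.0126). NKG7 passed by edgeR with library totals (adjusted p = 0.0463) and with no filter (0.00217). The fitted slope of C1QC ran from -0.20 without gilt 201 to -1.58 with each oocyte as a library. In the shallowest library a count of 0 allows levels up to 19.9 CPM.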
